A study of Mus musculus with 6 samples.

Results

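Cadherins are the transmembrane proteins that hold neighbouring cells together at adherens junctions, catenins link them to the cytoskeleton, and Epcam is a further adhesion protein of epithelial cells. Transcripts of 9 such genes were followed in a mouse model of epithelial-to-mesenchymal transition (EMT) and its reversal: the cadherins Cdh1, Cdh2, Cdh3, Cdh6 and Cdh11, the catenins Ctnna1, Ctnnb1 and Ctnnd1, and Epcam. The genes were chosen by name, with earlier results of these data known. Of the 9, 8 were matched to a row among the 17428 genes of the deposited table. Epcam stands there under its older symbol Tacstd1, and Cdh6 was not analysed here. All 8 passed the filter on low coverage, among 13893 genes tested.

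The libraries were made from EpH4, a non-cancer mouse mammary epithelial cell line, in 3 states with 2 libraries each. E cells were untreated, M cells had received TGFβ1 for 7 days, and RE (reverted epithelial) cells had received TGFβ1 for 7 days and were then kept for 4 days without it. All states thus came from 1 cell line, the replicates were named biological replicates by the study, and with 2 libraries per state no exact two-sided permutation test of a single value can give a p below 0.333.

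A classical cadherin binds the same cadherin on the next cell through its outer part and beta-catenin or plakoglobin through its tail. Alpha-catenin then ties the complex to actin, and delta-catenin binds closer to the membrane and slows removal of the cadherin from the surface. A change from E-cadherin, the product of Cdh1, to N-cadherin, the product of Cdh2, is a textbook mark of EMT, and beta-catenin that is not held at the membrane can act as a cofactor of Tcf transcription factors.

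The deposited values are sequenced bases summed per gene. They are given here in ppm of the library total after normalisation by the trimmed mean of M-values (TMM). The libraries held between 35782513 and 47928557 reads' worth of 50 bases, so that 3 reads' worth (150 bases), taken as the floor, came to between 0.0632 and 0.0787 ppm. Counting error is therefore small for most genes named below, and the spread between libraries sets the precision. That spread was wider in E than in the other states: across genes, the SD of the log2 difference between the 2 libraries was 0.558 in E, 0.318 in M and 0.309 in RE. Of the 8 mammary epithelial markers, Krt7, Krt8, Krt18 and Krt14 were above 100 ppm in every library and Krt19 and Krt5 below 1 ppm. The summed level of the 8 was 2677 to 2990 ppm in E, 3241 to 3331 ppm in M and 1273 to 1400 ppm in RE. Krt7 went from 1414 ± 61.6 ppm in E to 364 ± 54.1 ppm in RE, while the basal marker Krt14 was at 270 ± 63.3 and 328 ± 9.16 ppm and Trp63 at 70.7 ± 16.6 and 165 ± 9.93 ppm. In bulk RNA, fewer cells expressing a gene and less of its RNA per cell cannot be told apart.

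Among the 8 genes, Cdh2 rose and Epcam fell with TGFβ1, and after its removal Cdh2 fell while Epcam stayed at the level of M cells. A gene was taken as differentially expressed (DEG) where limma gave an adjusted p below 0.01 (Benjamini-Hochberg, over all genes tested) together with a log2 fold change larger than 1, up or down. By this rule 2 of the 8 were DEGs in E vs. M, against 16.8% of all genes tested, 1 of 8 in M vs. RE, against 12.7%, and 1 of 8 in E vs. RE, against 9.08%. At an adjusted p below 0.05 with no limit on the fold, the counts were 4, 2 and 5 of 8, against 41.6%, 31.7% and 30.4% of all genes. Of these, 3 were higher and 1 was lower in M than in E (21.4% and 20.2% of all genes), 1 was higher and 1 lower in RE than in M (16.7% and 15.0%), and 4 were higher and 1 lower in RE than in E (16.8% and 13.6%). The libraries of the compared states did not overlap for 6, 4 and 8 of the 8 genes, against 71.1%, 78.6% and 67.0% of all genes. The median log2 fold change of the 8 was 0.33 for E vs. M, -0.02 for M vs. RE and 0.60 for E vs. RE, beside 0, -0.02 and 0 over all genes tested. The words rose and fell are kept below for DEGs. The calls against RE rest on both RE libraries: with either one left out, limma called 0 of the 8 genes and 0 of the 84 tested genes of the lists described below in E vs. RE, and 9 or 50 of all genes.

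**Figure D1:**
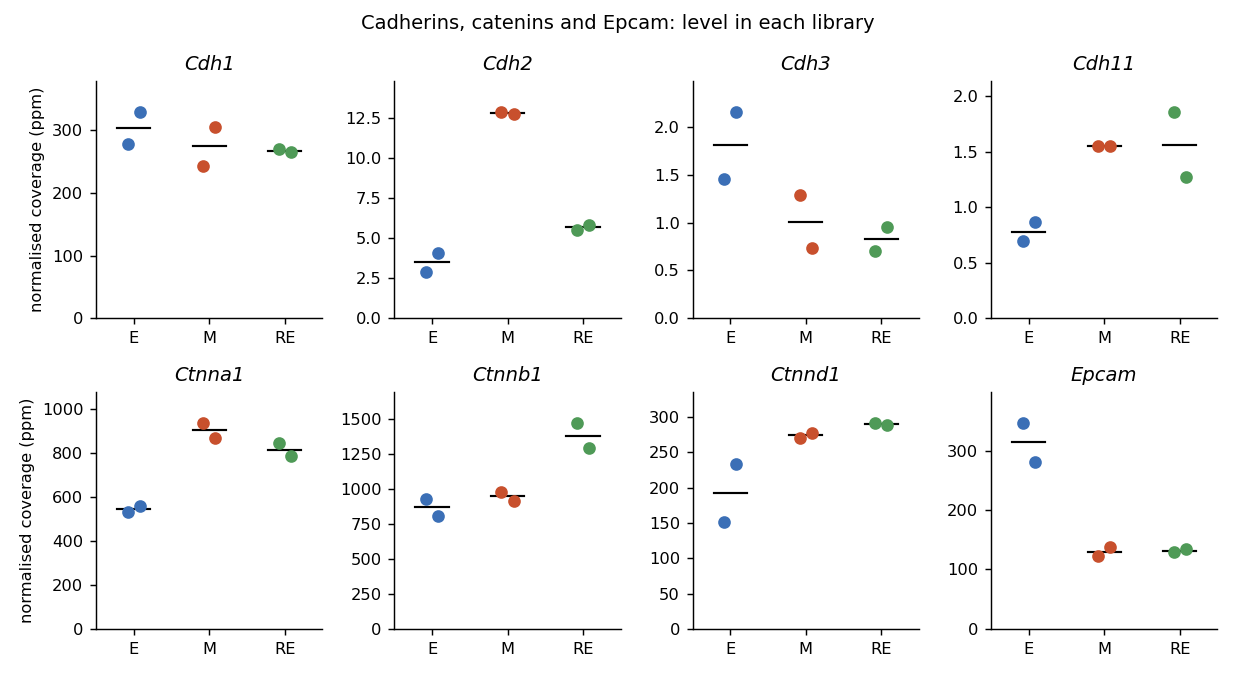
Normalised coverage (ppm of the library total, linear axes starting at 0) of the 8 genes in the 2 libraries (points) of E, M and RE cells, with the mean of each state as a line. Cdh2 is highest in both M libraries, Epcam is highest in both E libraries, Ctnnb1 is highest in both RE libraries, and the Cdh1 libraries of E and M overlap.

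Per kilobase of transcript, which allows a comparison between genes, Ctnnb1 had the highest level in every state, at 240 ± 23.2 ppm per kb in E, 262 ± 11.8 in M and 382 ± 35.9 in RE (SD, n = 2). In E cells Epcam (154 ± 22.9 ppm per kb) and Ctnna1 (146 ± 4.98) followed and did not differ beyond their spread. Cdh1 stood at 68.5 ± 8.21 ppm per kb in E and Ctnnd1 at 31.4 ± 9.31. Cdh2, Cdh3 and Cdh11 were at 0.723, 0.413 and 0.138 ppm per kb in E. In M cells Epcam (63.7 ± 5.30 ppm per kb) and Cdh1 (61.8 ± 9.81) were within each other's spread, and in RE cells they stood at 64.6 ± 1.84 and 60.4 ± 0.785.

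Cdh1 encodes E-cadherin, the main cadherin of epithelia. Its level was 278 and 329 ppm in the E libraries, 243 and 305 ppm in the M libraries and 270 and 265 ppm in the RE libraries. The E and M libraries overlapped, as did the M and RE libraries. The log2 fold change of Cdh1 was -0.15 in E vs. M with a 95% confidence interval from -0.52 to 0.22 (limma adjusted p = 0.468), -0.03 in M vs. RE (-0.40 to 0.34, adjusted p = 0.920) and -0.18 in E vs. RE (-0.55 to 0.19, adjusted p = 0.424). Both E libraries lay above both RE libraries. With library totals in place of TMM, which moved the median of all genes by -0.29 on the log2 scale, E vs. M was -0.45 (adjusted p = 0.0498).

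Cdh2 encodes N-cadherin, a cadherin of neural and mesenchymal cells. It was covered at 2.89 and 4.11 ppm in E, 12.9 and 12.8 ppm in M and 5.53 and 5.85 ppm in RE, and the libraries of the 3 states did not overlap. Cdh2 rose 3.66-fold from E to M (log2 fold change 1.87 ± 0.21 SE, adjusted p = 0.00057) and fell from M to RE (log2 fold change -1.16 ± 0.21, adjusted p = 0.00571). RE cells remained above E cells by 0.71 on the log2 scale (0.22 to 1.2, adjusted p = 0.0407), short of the DEG rule. That adjusted p was 0.0531 with library totals, 0.0635 with no filter, 0.0794 with array weights, 0.098 with only the 2 states in the fit, and between 0.0895 and 0.183 without any 1 of the M or RE libraries. The rise held in every alternative, with log2 fold changes from 1.58 to 2.08. The fall kept its direction, but its adjusted p went to 0.0109 with library totals, to 0.0112 with no filter on low values, and to between 0.0447 and 0.0627 when any 1 of the M or RE libraries was left out.

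Within each library, the ratio of Cdh2 to Cdh1 per kilobase does not depend on the scaling between libraries. It was 0.952% and 1.14% in E, 4.85% and 3.86% in M and 1.88% and 2.02% in RE. The libraries of the 3 states were apart, and the log2 ratio, with the 0.1 ppm pseudocount, differed by 2.02 between E and M, by -1.14 between M and RE and by 0.88 between E and RE. Even in M cells, Cdh2 thus stood at 4.35% ± 0.700 of the level of Cdh1 (SD, n = 2). The 3 genes whose log2 values followed Cdh2 most closely over the 6 libraries, among 10095 genes of sufficient level, were Galnt7 (Pearson r = 0.999), Ttf2 (0.9989) and Dock8 (0.9986), a description over 6 points that share 3 states.

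**Figure D2:**
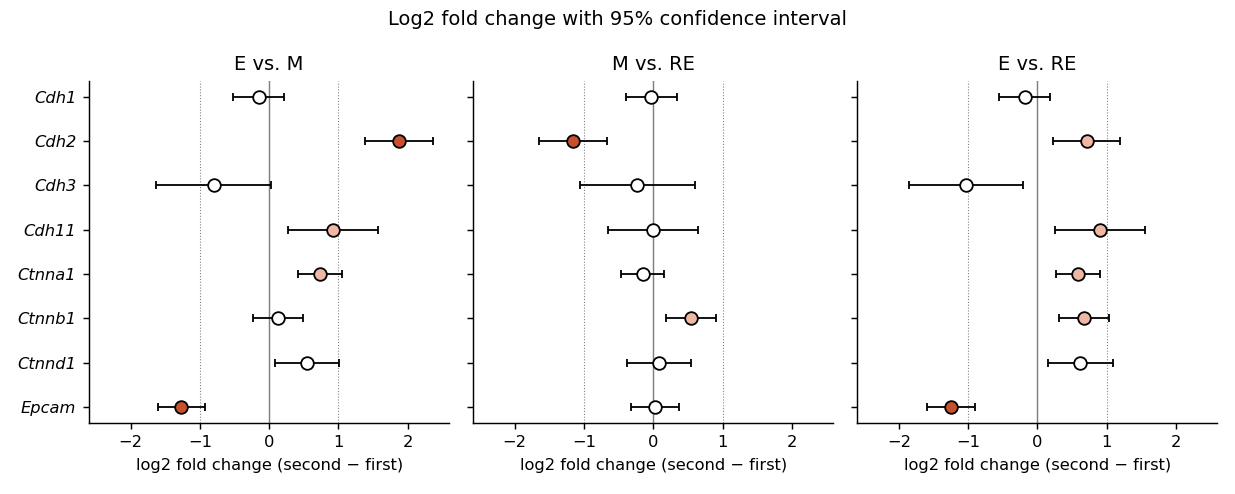
Log2 fold change (second state minus first) with its 95% confidence interval for the 8 genes in E vs. M, M vs. RE and E vs. RE. Dark points are DEGs, pale points passed an adjusted p of 0.05 only, open points passed neither, and dotted lines mark a log2 fold change of 1 in either direction. The intervals of Cdh1 span 0 in all 3 comparisons, and Epcam sits near -1.27 and -1.24 in the comparisons with E and near 0 in M vs. RE.

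Cdh3 and Cdh11 were both near the low end of the tested range. Cdh3 encodes P-cadherin, which in the mammary gland marks the basal layer, and its gene is the next coding gene to Cdh1 on chromosome 8 in RefSeq. Its level was 1.46 and 2.16 ppm in E, 1.29 and 0.732 ppm in M and 0.702 and 0.952 ppm in RE, with M and RE overlapping. The log2 fold changes of Cdh3, -0.80 in E vs. M (-1.63 to 0.02, adjusted p = 0.104) and -1.03 in E vs. RE (-1.85 to -0.21, adjusted p = 0.0619), passed neither rule. The libraries held between 1499 and 4118 bases of Cdh3.

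Cdh11, a cadherin of mesenchyme and bone-forming cells, was at 0.694 and 0.866 ppm in E, 1.55 and 1.55 ppm in M and 1.86 and 1.27 ppm in RE. Both E libraries were below the other 4. The log2 fold change was 0.92 in E vs. M (adjusted p = 0.0338) and 0.90 in E vs. RE (adjusted p = 0.0453), with -0.01 between M and RE. Neither was a DEG, and the adjusted p of Cdh11 were above 0.05 in most alternatives, reaching 0.136 in E vs. M and 0.167 in E vs. RE with array weights. With 1 library left out they reached 0.144 (without either M library) and 0.294 (without the first RE library).

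The other members of the cadherin family were taken from a list of 17 genes, of which 12 had a row and 8 were tested. In E vs. M 4 of the 8 rose and 2 fell (8.41% of all genes rose and 8.35% fell), in M vs. RE 2 rose and 3 fell (7.92% and 4.79%), and in E vs. RE 1 rose (5.92%). The list's median log2 fold change was 0.94, -0.98 and 0.22 in the 3 comparisons, and 0.94, -0.98 and 0.09 with genes at the floor set to their bound.

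Cdh10, a cadherin best known from the nervous system, was at 8.24 and 17.0 ppm in E, 84.2 and 73.1 ppm in M and 4.03 and 3.85 ppm in RE. Cdh10 rose from E to M (log2 fold change 2.72, adjusted p = 0.00061) and fell from M to RE (-4.28, adjusted p = 9.67e-05), to a level in RE below both E libraries (-1.56, adjusted p = 0.0102, short of the DEG rule). The E libraries of Cdh10 lay further apart than its M or RE libraries. The log2 fold change in E vs. RE was -2.08 without the first E library and -1.06 without the second. In the alternatives that kept both libraries of each compared state, its adjusted p lay between 0.00224 and 0.0272.

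Cdh13, which is anchored to the membrane by a lipid and lacks the catenin-binding tail, went the other way. It was covered at 43.3 and 46.0 ppm in E, 21.6 and 18.1 ppm in M and 113 and 100 ppm in RE. Cdh13 fell from E to M (log2 fold change -1.17, adjusted p = 0.000923) and rose from M to RE (2.42, adjusted p = 4.84e-05), past the level of E (1.26, adjusted p = 0.00152). Cdh13 is not among the genes that the naming rule picked and was singled out after its values were seen, as it was the 1 gene of the list that rose in E vs. RE. Cdh26, expressed in some epithelia, was at 9.28 and 9.30 ppm in E, 1.28 and 1.48 ppm in M and 10.3 and 10.4 ppm in RE, so that it fell with TGFβ1 (log2 fold change -2.67, adjusted p = 6.7e-05) and rose on its removal (2.83, adjusted p = 5.51e-05).

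Cdh15, a cadherin of muscle precursors, and Cdh5, the cadherin of endothelium, were at 0 in both E libraries. Cdh15 was at 4.93 and 5.47 ppm in M and at or under the floor in both RE libraries (100 and 12 bases). Cdh5 was at 2.32 and 2.09 ppm in M and at 100 and 200 bases in RE. Against the floor of E cells, this makes Cdh15 at least 66-fold and Cdh5 at least 28-fold higher in M. Of the 5 endothelial markers, Cdh5 among them, Kdr and Tie1 were at or under the floor in every library. Pecam1 was at 0.209 ± 0.0391 ppm in E, 0.347 ± 0.12 in M and 0.311 ± 0.00824 in RE, and Tek at 0.222, 0.133 and 0.0838 ppm. The summed level of the 5 was 0.373 to 0.622 ppm in E, 2.70 to 2.75 ppm in M and 0.492 to 0.536 ppm in RE. Most of the sum in M was Cdh5 itself.

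Taken as shares of the summed level per kilobase of the 16 cadherins with a row, Cdh1 made up 71.0% and 69.7% in the E libraries, 54.0% and 61.8% in M and 58.1% and 58.7% in RE. Cdh1 was the most abundant cadherin in each library. The share of Cdh10 went from 3.71% ± 1.37 in E to 21.8% ± 3.58 in M and 1.12% ± 0.015 in RE (SD, n = 2). That of Cdh13 went from 12.2% ± 1.10 to 4.96% ± 0.941 and 27.3% ± 1.82. Cdh2 accounted for 0.736% ± 0.0849, 2.5% ± 0.168 and 1.14% ± 0.0672. Cdh24 stayed between 6.84% and 9.93% in the 6 libraries.

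**Figure D3:**
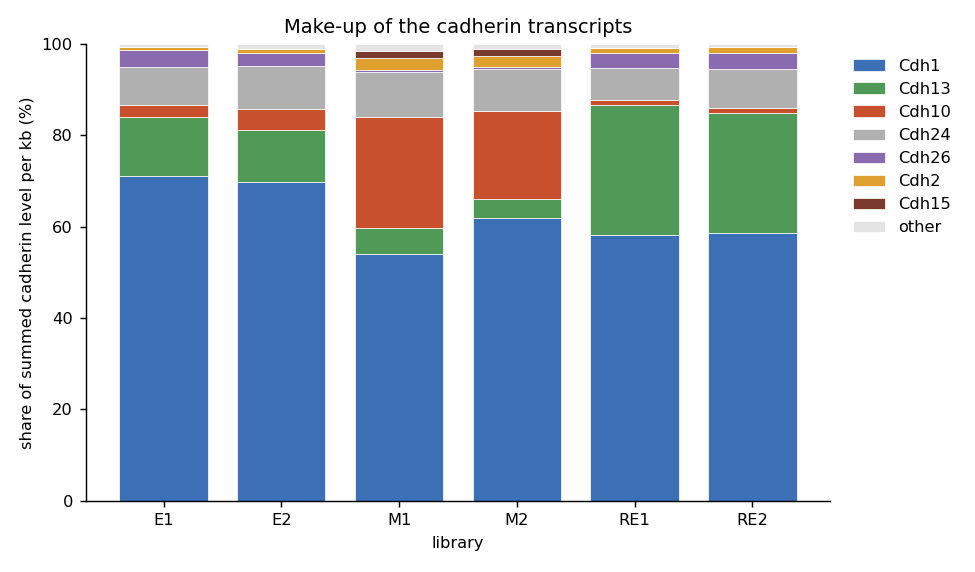
Share (%) of each cadherin in the summed cadherin level per kilobase, by library, for 7 cadherins, with the other 9 summed. Cdh1 fills 54.0% to 71.0% of each bar, the Cdh10 block is widest in both M libraries and the Cdh13 block in both RE libraries.

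Among the catenins, Ctnna1 (alpha-catenin) was higher in both TGFβ1-exposed states and Ctnnb1 (beta-catenin) in RE cells, each by less than the fold of the DEG rule. Ctnna1 was at 531 and 557 ppm in E, 938 and 870 ppm in M and 844 and 785 ppm in RE, with no overlap between states. Its log2 fold change was 0.73 in E vs. M (0.42 to 1.05, adjusted p = 0.00483), -0.15 in M vs. RE (-0.47 to 0.16, adjusted p = 0.436) and 0.58 in E vs. RE (0.27 to 0.90, adjusted p = 0.0177). Without the first M library, E vs. M was 0.68 (adjusted p = 0.0598), and with only the 2 states in the fit E vs. RE was 0.57 (adjusted p = 0.0537). The adjusted p of Ctnna1 in E vs. RE was 0.0546 and 0.0536 without the first and second M library, and 0.175 and 0.1 without the first and second RE library.

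Ctnnb1 was at 931 and 811 ppm in E, 979 and 918 ppm in M and 1475 and 1291 ppm in RE. Both RE libraries lay above the other 4, and E and M overlapped. The log2 fold change of Ctnnb1 was 0.13 in E vs. M (-0.23 to 0.49, adjusted p = 0.537), 0.54 in M vs. RE (0.18 to 0.90, adjusted p = 0.0331) and 0.67 in E vs. RE (0.31 to 1.03, adjusted p = 0.0174). The adjusted p in M vs. RE lay between 0.110 and 0.259 without any 1 of the M or RE libraries, and was 0.0626 with no filter. That in E vs. RE was 0.176 without the first RE library, 0.0786 without the second, 0.0505 without the first M library and 0.0501 with only the 2 states in the fit.

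Ctnnd1 (delta-catenin) was at 152 and 233 ppm in E, 271 and 278 ppm in M and 292 and 288 ppm in RE. Each state lay above the one before, but the 2 E libraries differed by more than the RE libraries differed from the M libraries. Its log2 fold change was 0.54 in E vs. M (SE 0.20, adjusted p = 0.0625) and 0.62 in E vs. RE (SE 0.20, adjusted p = 0.0507), which passed neither rule. In GENCODE M21, an annotation newer than the one behind the table, 69.7% of the exon bases of Ctnnd1 are shared with the readthrough gene Gm28635, so the coverage of the 2 cannot be told apart. The other 7 genes share no exon bases with another gene there.

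The balance between the catenins and Cdh1 was also read within libraries, per kilobase. Ctnna1 stood at 2.27 and 2.01 times Cdh1 in E, 4.58 and 3.39 times in M and 3.71 and 3.52 times in RE. Ctnnb1 stood at 4.10 and 3.01 times Cdh1 in E, 4.92 and 3.69 times in M and 6.68 and 5.96 times in RE. Ctnnd1 stood at 0.397 and 0.512 times Cdh1 in E, 0.806 and 0.660 times in M and 0.782 and 0.787 times in RE. For each of the 3 the RE libraries were above the E libraries, and E and M overlapped for Ctnnb1 only. The ratio of Ctnna1 to Ctnnb1 was 0.610 ± 0.0797 in E, 0.925 ± 0.00729 in M and 0.573 ± 0.0249 in RE (SD, n = 2).

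Of 8 further catenins and armadillo-repeat partners, 5 were tested. In E vs. M 1 of the 5 rose (8.41% of all genes), in M vs. RE 1 fell (4.79%), and in E vs. RE limma called 0. There 2 of the 5 had an adjusted p below 0.05, against 30.4% of all genes. The median log2 fold changes were 0.12, 0.02 and 0.14. The gene was Jup, which encodes plakoglobin, a relative of beta-catenin that serves both adherens junctions and desmosomes. Jup was at 338 and 327 ppm in E, 929 and 936 ppm in M and 463 and 447 ppm in RE, and rose 2.81-fold from E to M (adjusted p = 0.00016) before it fell from M to RE (log2 fold change -1.03, adjusted p = 0.000949). Per kilobase it went from 0.433 ± 0.0324 times Ctnnb1 in E to 1.11 ± 0.0557 times in M and 0.373 ± 0.0261 times in RE. Pkp4, another catenin of the delta group, was at 191 ± 4.64, 203 ± 5.46 and 186 ± 7.07 ppm. The fall of Jup was short of the DEG rule without any 1 of the M or RE libraries (adjusted p from 0.0179 to 0.0219), and with library totals, where its log2 fold change was -0.82.

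Of the 7 components of the complex that marks beta-catenin for destruction, limma called 0 as DEGs in each of the 3 comparisons. At an adjusted p below 0.05 there were 2, 1 and 1 of the 7, against 41.6%, 31.7% and 30.4% of all genes. The medians were 0.12, -0.02 and 0.11. Csnk1a1, a casein kinase and the member with the highest mean log2 level over the 6 libraries, was at 357 ± 12.6, 329 ± 16.1 and 324 ± 15.4 ppm in E, M and RE. In M cells Apc, the scaffold of the complex, was as high (341 and 341 ppm), and in the E libraries it was at 113 and 214 ppm. The log2 fold change of Apc was 1.14 in E vs. M (adjusted p = 0.0139) and 1.02 in E vs. RE (adjusted p = 0.0281), short of the DEG rule. Of 11 genes often used as readouts of beta-catenin and Tcf, 8 had a row and 7 were tested. Notum was the 1 DEG in each comparison with M, and Ccnd1 the 1 DEG in E vs. RE, with medians of 0.27, 0.17 and 0.39. In each comparison this was 14.3% of the 7, against 16.8%, 12.7% and 9.08% of all genes. Notum, a secreted inhibitor of Wnt proteins, had 2425 and 1712 bases in E, 100 and 123 in M (at or under the floor) and 2882 and 2694 in RE, and it was no DEG in E vs. M with a pseudocount of 1 ppm. Ccnd1, which encodes cyclin D, was at 211 and 299 ppm in E, 181 and 186 ppm in M and 90.8 and 101 ppm in RE, and fell in E vs. RE (log2 fold change -1.39, adjusted p = 0.0023). Without an RE library this adjusted p was 0.0433 or 0.0253. In GENCODE M21, 29.0% of the exon bases of Notum and 21.9% of those of Ccnd1 overlap a gene on the other strand.

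Epcam encodes a homophilic adhesion protein of epithelia that can be cleaved and signal from its inner part. It was covered at 347 and 281 ppm in E, 122 and 138 ppm in M and 129 and 134 ppm in RE. Both E libraries were above the other 4, and M and RE overlapped. Epcam fell from E to M (log2 fold change -1.27 ± 0.15 SE, 95% confidence interval -1.61 to -0.92, adjusted p = 0.000669) and was as low in RE (E vs. RE: -1.24 ± 0.15, -1.59 to -0.90, adjusted p = 0.00161). Between M and RE the log2 difference was 0.02 (-0.32 to 0.37, adjusted p = 0.926). The call in E vs. M did not hold without the first M library (-1.17, adjusted p = 0.0138), nor the call in E vs. RE without the first (-1.21, adjusted p = 0.0355) or the second RE library (-1.27, adjusted p = 0.0251).

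Relative to Cdh1 in the same library and per kilobase, Epcam stood at 2.71 and 1.85 times in E, 1.09 and 0.981 times in M and 1.04 and 1.10 times in RE, with E apart from the rest. Of Tex9, Mrpl22 and Wdr78, the 3 genes whose log2 values followed Epcam most closely over the 6 libraries, the Pearson r was 0.9988, 0.9977 and 0.9974 among 10095 genes. The group means order Epcam as E above RE above M, with the last 2 not differing beyond their spread. For Cdh2 the order was M, RE, E, for Ctnna1 M, RE, E, and for Ctnnb1 RE, M, E, with M and E not apart.

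The promoter window of Epcam is shown for the letters CACCTG and CAGGTG, which are the same E-box read on either strand and the core that Snail and Zeb repressors bind, and for ACCGGT, the palindromic core of the motif of Grhl activators. Windows are those of RefSeq on GRCm38.p6 from 250 bases before a start to 50 after it, of which the first 270 bases are printed, 5′ to 3′ on the gene's strand. The 3 other windows are those of genes listed with Epcam that fell with it, chosen for display after the matches were seen because each holds at least 2 E-boxes. Capitals mark these 6-letter matches, and positions count from the start site.
Epcam, chr17:87635729-87635998, plus strand: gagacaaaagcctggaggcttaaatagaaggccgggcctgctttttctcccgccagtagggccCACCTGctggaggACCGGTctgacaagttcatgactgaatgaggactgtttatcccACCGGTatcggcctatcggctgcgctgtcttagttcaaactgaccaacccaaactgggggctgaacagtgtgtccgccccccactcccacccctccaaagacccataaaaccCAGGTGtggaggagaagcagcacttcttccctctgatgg
Cldn7, chr11:69965171-69965440, plus strand: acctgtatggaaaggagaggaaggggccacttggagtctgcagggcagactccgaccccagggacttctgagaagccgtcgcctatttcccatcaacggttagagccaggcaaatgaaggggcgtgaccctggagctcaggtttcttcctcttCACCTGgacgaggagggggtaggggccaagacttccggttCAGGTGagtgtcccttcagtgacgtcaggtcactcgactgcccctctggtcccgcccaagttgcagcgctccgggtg
Cldn4, chr5:134946915-134947184, minus strand: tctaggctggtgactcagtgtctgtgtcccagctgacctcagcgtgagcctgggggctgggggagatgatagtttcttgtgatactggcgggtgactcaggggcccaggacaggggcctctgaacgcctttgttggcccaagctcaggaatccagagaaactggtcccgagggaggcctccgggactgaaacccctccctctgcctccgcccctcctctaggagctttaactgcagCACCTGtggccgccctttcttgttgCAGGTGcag
Spint2, chr7:29281958-29282227, minus strand: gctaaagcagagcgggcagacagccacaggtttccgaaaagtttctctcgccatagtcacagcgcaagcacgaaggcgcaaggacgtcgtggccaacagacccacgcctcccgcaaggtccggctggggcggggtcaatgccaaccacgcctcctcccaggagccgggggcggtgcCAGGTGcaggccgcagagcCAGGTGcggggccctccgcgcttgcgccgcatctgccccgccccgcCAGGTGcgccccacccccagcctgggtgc

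In Epcam the E-box begins at -187 and -19 and ACCGGT at -174 and -131. In Cldn7 the E-box begins at -97 and -57 of 1 of its 2 starts, in Cldn4 at -14 and 12, and in Spint2 at -74, -55 and -9. The window of Spint1, which fell as well, holds no E-box and has ACCGGT at -77, and that of Cd9, with a log2 fold change of 0.02 in E vs. M, has an E-box at -73. Those of Cd44, Adam17, Psen2 and Fhl2 hold neither. The windows of Ctnnb1 and Ctnnd1 (2 starts each) hold no E-box, and 1 start of Ctnnb1 has ACCGGT at -211. No window was available for Cdh1, Cdh2, Cdh3, Cdh11 and Ctnna1, so whether their promoters hold these letters was not examined. Some genes listed with Epcam had no window either. Of all 32851 RefSeq mouse windows, 20.2% hold at least 1 E-box and 2.88% at least 2, while 2.33% hold ACCGGT and 0.055% hold 2 or more. These matches describe letters in the windows, and no binding was measured.

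Most of the 11 genes listed with Epcam encode proteins that bind or cleave it. In E vs. M 5 of the 11 fell and 2 rose (8.35% and 8.41% of all genes). Between M and RE 1 rose and 1 fell (7.92% and 4.79%), and in E vs. RE 3 fell (3.16% of all genes tested fell there). The list's medians were -0.91, -0.13 and -0.16. Those that fell with TGFβ1 included the tight-junction claudins Cldn7 and Cldn4, and Spint1 and Spint2, which inhibit the protease matriptase. Of these, Cldn4, Spint1 and Spint2 lie outside the naming rule and are named after their values were seen, as is St14 below.

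Cldn7, which binds Epcam directly, was at 132 and 118 ppm in E, 34.1 and 32.9 ppm in M and 51.4 and 47.2 ppm in RE. Cldn7 fell from E to M (log2 fold change -1.89, adjusted p = 7.01e-05) and remained lower in RE than in E (-1.34, adjusted p = 0.000868), with 0.56 from M to RE (adjusted p = 0.0157). Cldn4 (196 ± 24.5, 92.5 ± 3.69 and 79.6 ± 0.226 ppm in E, M and RE) also fell in E vs. RE, as did the matriptase gene St14 (395 ± 9.01, 210 ± 3.88 and 192 ± 2.55 ppm).

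The 2 partners that rose in E vs. M were Cd44, a hyaluronan receptor, and Fhl2, a cofactor that binds the inner fragment of Epcam. Cd44 was at 88.5 and 158 ppm in E, 445 and 457 ppm in M and 127 and 130 ppm in RE. It rose from E to M (log2 fold change 1.93, adjusted p = 0.00103) and fell from M to RE (-1.81, adjusted p = 0.0017). Fhl2 was at 58.8 and 73.3 ppm in E, 185 and 175 ppm in M and 115 and 112 ppm in RE, a rise in E vs. M (1.45, adjusted p = 0.000315). Cd44 was short of the DEG rule in E vs. M without the first or second M library (adjusted p = 0.0122 and 0.0128), and in M vs. RE without any 1 of the M or RE libraries (adjusted p from 0.0188 to 0.0253).

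**Figure D4:**
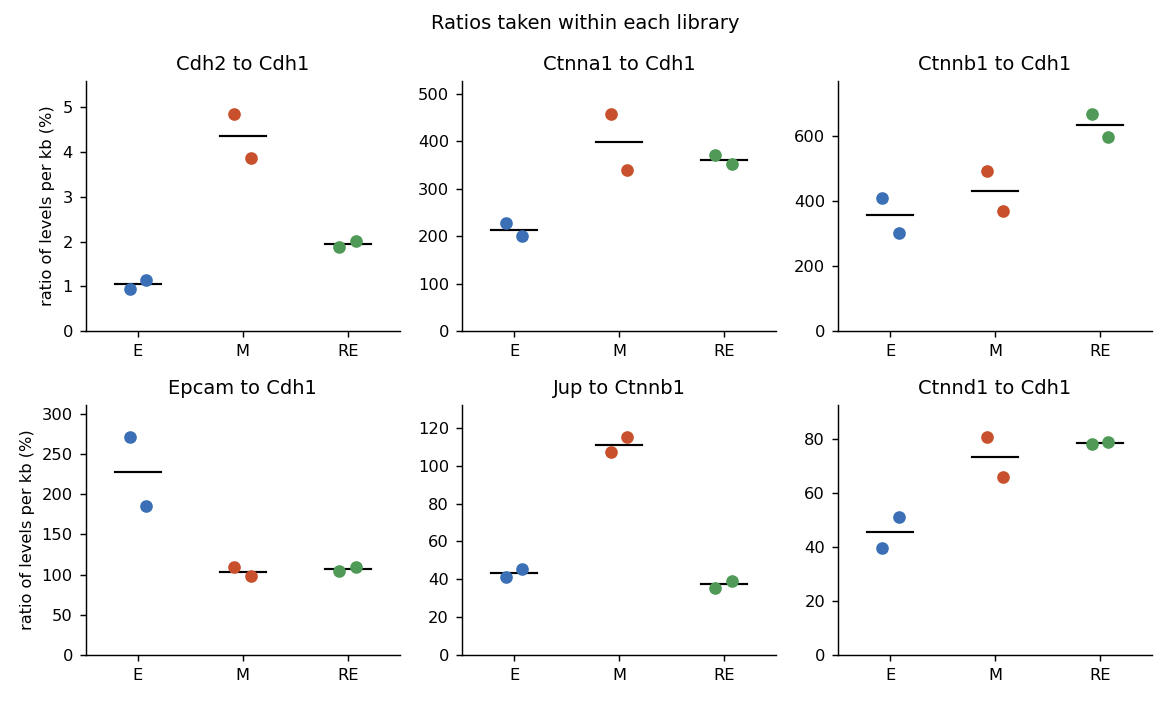
Ratios of the levels per kilobase of 2 genes within each library (%, axes starting at 0), as points for the 2 libraries and a line for the mean of E, M and RE. Cdh2 to Cdh1 and Jup to Ctnnb1 are highest in M, Ctnnb1 to Cdh1 in RE, and Epcam to Cdh1 in E, while Ctnna1 and Ctnnd1 to Cdh1 are lowest in E.

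Nectins are immunoglobulin-like adhesion proteins that join cadherins at the same junction through afadin. The list of 6 genes held the nectins Pvrl1 to Pvrl4, the nectin-like Pvr and Mllt4, the gene of afadin. Of the 6, 3 rose in E vs. M (8.41% of all genes rose). The same 3 fell in M vs. RE (4.79% fell), while 2 fell in E vs. RE (3.16%). The medians were 0.72, -1.23 and -0.42. Pvrl3 was at 44.0 and 37.9 ppm in E, 232 and 232 ppm in M and 53.2 and 53.8 ppm in RE, a 5.67-fold rise (adjusted p = 2.48e-05) and then a fall (log2 fold change -2.11, adjusted p = 4.88e-05). Pvrl1 was at 28.8 and 34.7 ppm in E, 59.5 and 70.5 ppm in M and 14.1 and 14.9 ppm in RE, so that after its rise (1.03, adjusted p = 0.00213) it fell below E cells (-1.12 in E vs. RE, adjusted p = 0.00306). Pvr was at 21.0 and 40.7 ppm in E, 89.1 and 87.1 ppm in M and 22.6 and 24.2 ppm in RE. Pvrl2, at 49.8 ± 13.4, 25.4 ± 4.38 and 18.7 ± 1.18 ppm, fell in E vs. RE (-1.38, adjusted p = 0.00445). The rises of Pvrl1 and Pvr in E vs. M were short of the DEG rule without the first M library (adjusted p = 0.0158 and 0.0343) and without the second (0.0328 and 0.0314). Its fall was short of it without any 1 M or RE library (adjusted p of Pvr from 0.0222 to 0.0306). With only the 2 states in the fit, the adjusted p of Pvr in E vs. M was 0.0137, and those of Pvrl1 and Pvrl2 in E vs. RE were both 0.0117. Those of Pvrl1 and Pvrl2 in E vs. RE lay between 0.0114 and 0.0123 without an M library and between 0.0322 and 0.0611 without an RE library. Without an RE library the adjusted p of Pvr in E vs. M was 0.0136 or 0.0138. The log2 fold change of Pvrl1 in E vs. M was 0.74 with library totals and 0.90 without the first E library.

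A list of 12 genes covered proteins that link the junction to the cytoskeleton, most of them to actin. In E vs. M 6 rose and 1 fell (8.41% and 8.35% of all genes). In M vs. RE 1 rose and 2 fell (7.92% and 4.79%), and in E vs. RE 2 rose and 1 fell (5.92% and 3.16%). The medians were 0.95, -0.51 and 0.33. Camsap3 was the gene that fell in E vs. M (-1.18) and in E vs. RE (-1.01), and Plekha7 that which rose in M vs. RE (1.09). Both are named after their values were seen. Vcl encodes vinculin, which binds alpha-catenin under tension. It was at 88.5 and 136 ppm in E, 599 and 653 ppm in M and 397 and 384 ppm in RE, a rise in E vs. M (log2 fold change 2.51, adjusted p = 0.000141) and in E vs. RE (1.83, adjusted p = 0.00136). Zyx (zyxin) was at 209 and 276 ppm in E, 1077 and 1030 ppm in M and 334 and 348 ppm in RE, and rose and fell (2.13 and -1.63 on the log2 scale, adjusted p = 0.000105 and 0.000398). Lima1, which encodes the alpha-catenin partner EPLIN, was at 38.6 and 52.7 ppm in E, 127 and 131 ppm in M and 140 and 133 ppm in RE, up in both M and RE against E (1.52 and 1.60). Iqgap1, a scaffold that can loosen alpha-catenin from the complex, was at 265 and 530 ppm in E, 1543 and 1572 ppm in M and 625 and 579 ppm in RE, with a rise in E vs. M (2.05, adjusted p = 0.00161). In M vs. RE its log2 fold change was -1.37 (limma adjusted p = 0.0114), just short of the DEG rule. The fall of Zyx had an adjusted p of 0.011 without the first RE library. The call of Iqgap1 was lost without the first or second M library (adjusted p = 0.0163 and 0.017), and 39.7% of the exon bases of Vcl overlap a gene on the other strand in GENCODE M21.

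Of 12 genes whose proteins process cadherins or turn them over, 2 rose in E vs. M and 1 fell in M vs. RE. These were 16.7% and 8.33% of the list, against 16.8% and 12.7% of all genes called in either direction. In E vs. RE limma called 0, and 6 of the 12 had an adjusted p below 0.05, against 30.4% of all genes. The medians were 0.57, -0.33 and 0.26. Furin, which removes the propeptide of cadherins, was at 114 ± 19.5, 352 ± 9.39 and 180 ± 10.9 ppm in E, M and RE, and rose in E vs. M (log2 fold change 1.64, adjusted p = 0.00024). Adam10, a protease that sheds E-cadherin, was at 102 ± 14.7, 308 ± 2.35 and 184 ± 17.6 ppm, and rose as well (1.61, adjusted p = 0.000235). Src, a kinase that phosphorylates catenins, was at 157 ± 25.8, 282 ± 5.77 and 100 ± 14.1 ppm and fell in M vs. RE (-1.50, adjusted p = 0.000609). Of Src the adjusted p was 0.0114 without the first M library and 0.0134 without the first RE library.

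Genes that act on the promoters of Cdh1 or Epcam were followed in 2 lists. Of 8 repressors of Cdh1, 7 were tested, and 3 rose in E vs. M (8.41% of all genes). Between M and RE limma called 0, with 3 of the 7 at an adjusted p below 0.05 (31.7% of all genes). In E vs. RE 4 rose (5.92%). The medians were 0.65, 0.36 and 1.27. Zeb1 was at 3.52 and 6.16 ppm in E, 49.9 and 44.3 ppm in M and 43.3 and 42.8 ppm in RE, with log2 fold changes of 3.31 in E vs. M and 3.18 in E vs. RE. In RE cells as in M cells, Zeb2 (14.4 ± 4.95, 128 ± 9.40 and 78.0 ± 4.84 ppm in E, M and RE) and Snai1 (6.50 ± 1.91, 22.8 ± 2.00 and 18.9 ± 0.849 ppm) had risen from E. Tcf4, a basic helix-loop-helix factor, was at 41.9 and 70.9 ppm in E, 62.3 and 61.9 ppm in M and 135 and 129 ppm in RE, and rose in E vs. RE (1.27, adjusted p = 0.00725). In M vs. RE the log2 fold change of Tcf4 was 1.08 (limma adjusted p = 0.0111), just short of the DEG rule. Over the alternatives other than leaving out a library, that adjusted p lay between 1.3e-07 and 0.018. With no filter on low values the adjusted p of Tcf4 in E vs. RE was 0.0126, and with only the 2 states in the fit those of Tcf4 and Snai1 were 0.0219 and 0.0116. Without the first E library the log2 fold change of Tcf4 was 0.89, and without the first M library the adjusted p of Snai1 in E vs. M was 0.0119. Without an M library the adjusted p in E vs. RE was 0.0221 for Tcf4 and 0.0111 or 0.0109 for Snai1. Without an RE library it was 0.0793 or 0.0535 for Tcf4 and 0.0414 or 0.0355 for Snai1.

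The 9 listed activators of Cdh1 and Epcam included Grhl, Ovol and Klf factors. In E vs. M 7 of 9 fell (8.35% of all genes), in M vs. RE 7 of 9 rose (7.92%), and in E vs. RE limma called 0. There 1 of the 9 had an adjusted p below 0.05, against 30.4% of all genes. That gene was Ovol2, lower in RE than in E (log2 fold change -1.4, limma adjusted p = 0.0252). Ovol2 was at 4.62, 0.951 and 1.68 ppm in E, M and RE. It lies outside the naming rule and is named after its values were seen. The medians were -2.04, 2.49 and 0.20. Grhl1, a grainyhead-like factor, was at 17.1 and 18.7 ppm in E, 1.29 and 1.49 ppm in M and 24.0 and 18.0 ppm in RE, with log2 fold changes of -3.59 in E vs. M (adjusted p = 3.15e-05) and 3.81 in M vs. RE (adjusted p = 2.86e-05). Klf4, a zinc-finger factor, was at 115 and 144 ppm in E, 18.0 and 20.1 ppm in M and 138 and 145 ppm in RE. Grhl3 was at 5.63 ± 0.049, 1.43 ± 0.625 and 10.8 ± 1.33 ppm and Ovol1, an inhibitor of Zeb1 expression, at 6.51 ± 1.24, 1.55 ± 0.645 and 10.3 ± 0.181 ppm in E, M and RE. Both RE libraries of Grhl3 and Ovol1 lay above both E libraries, and those of Grhl1 and Klf4 overlapped with E. The fall of Klf4 was -2.75 on the log2 scale in E vs. M and its rise 2.88 in M vs. RE. Without the first M library Grhl3 and Ovol1 were short of the DEG rule in E vs. M (adjusted p = 0.0113 and 0.0114), and Ovol1 also in M vs. RE without the first or second RE library (0.011 and 0.0103).

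**Figure D5:**
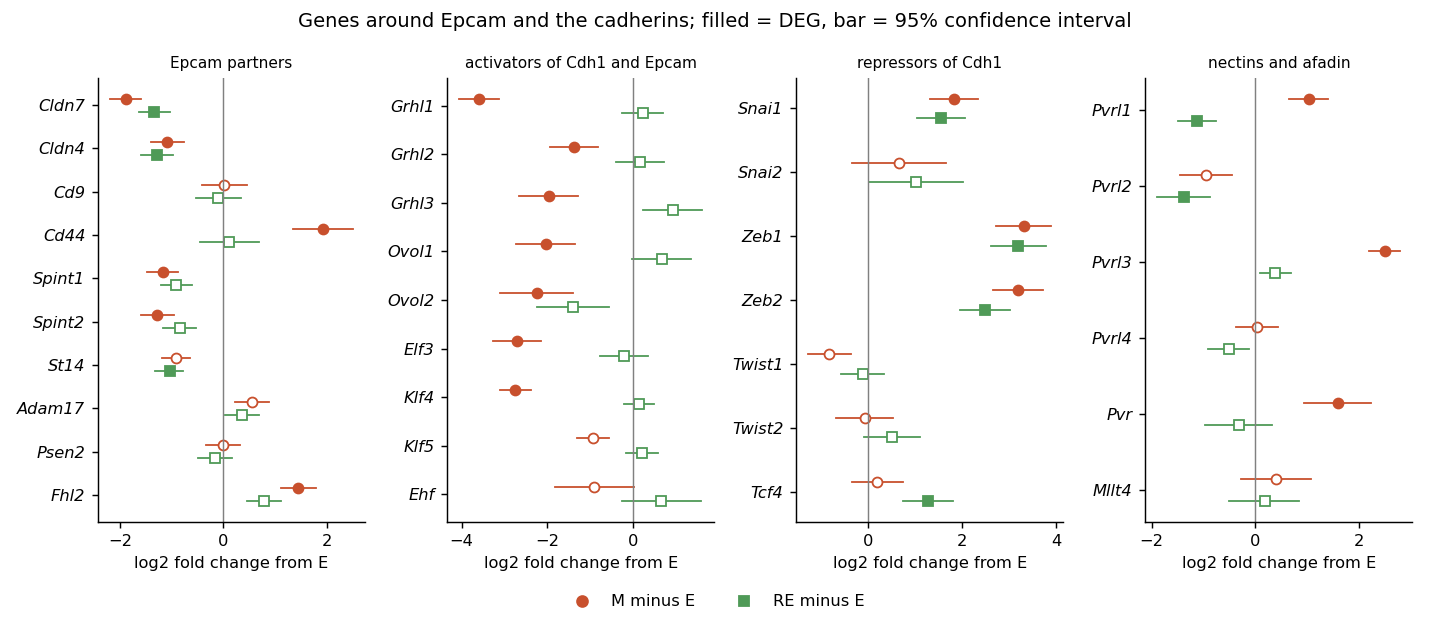
Log2 fold change of M minus E (circles) and RE minus E (squares), with 95% confidence intervals, for genes of 4 lists, where filled symbols are DEGs. Circles and squares lie together for Zeb1 and Snai1 and for Cldn4, while the squares of most activators lie near 0.

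Over the 10 lists, the 8 genes themselves left out, 37 of 84 genes tested were DEGs in E vs. M, 23 of 84 in M vs. RE and 14 of 84 in E vs. RE, to be read beside the 16.8%, 12.7% and 9.08% of all genes. Genes of a list were chosen for their place in the junction with results of these libraries known, so that these shares describe the lists. Markers of other cell types moved with some of these results. The summed level of 7 fibroblast markers was 136 to 167 ppm in E, 997 to 1134 ppm in M and 1065 to 1246 ppm in RE, while Thy1 was at or under the floor in every library. Of the 6 tested, 4 rose and 1 fell in E vs. M (8.41% and 8.35% of all genes). Dcn was the one that fell, from 0.4 ppm in E to under the floor in M (limma adjusted p = 0.00571), with 2.75 ppm in RE. Among 5 blood markers Ptprc and Cd3e were at or under the floor in every library, and the sum was 6.77 to 10.7 ppm in E, 32.9 to 37 ppm in M and 7.28 to 7.41 ppm in RE. Most of the sum in M was Csf1r, a receptor of macrophages, which rose from 1.42 ± 0.187 ppm in E to 27.9 ± 3.11 ppm in M (adjusted p = 3.26e-05) and fell to 1.75 ± 0.44 ppm in RE (adjusted p = 4.84e-05). Among 4 fat markers Adipoq, Plin1 and Lep were at or under the floor in every library, and the sum was 3.12 to 9.07 ppm in E, 0.0558 to 0.102 ppm in M and 1.92 to 2.26 ppm in RE. The part of other cells in the changes of cadherins, catenins and Epcam was not tested.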

How the data were processed

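Whole-transcriptome libraries of E, M and RE stages of EpH4 were sequenced by the authors, who mapped unique reads to NCBI-m37 with Bowtie and TopHat2 and called DEGs with edgeR, per the submitters' processing notes and the methods. Versions and the step that summed reads per gene are not given in the sources used here. The deposited values are an un-normalised signal, handled as coverage in bases, since between 44.8% and 48.4% of the values from 1 to 400 are multiples of 50. A test for read counts was therefore not used.

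Coverage was scaled with unweighted TMM factors (0.875 to 1.12) to ppm of the library total. A gene entered the fit when 2 or more libraries held 500 bases of it. The tool limma 3.58.1 in R 4.3.3 was fitted to log2(ppm + 0.1) with all 6 libraries, state as the term and a trend on mean level, and p was adjusted by the Benjamini-Hochberg method over all genes. Fold changes are on this log2(ppm + 0.1) scale, which understates those of low genes. The p-values measure the spread between these libraries, and counting error covers only part of it. Levels per kilobase used the longest principal coding transcript in GENCODE M21 (GRCm38), which is newer than the authors' build. Promoter windows were read from RefSeq (GRCm38.p6) in Python 3.11.15. The fit was checked on simulated data.

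The genes, the lists and the tests were chosen with earlier results of these data known. Named are all members, at most 4 DEGs of the largest change from each list or, in a list with fewer than 2, its DEG and its most abundant gene, and the 3 genes most correlated with each member that was a DEG, among genes with a mean log2 value of at least 2. Values of 1 gene that the rule names and of 1 marker are not reported here, though list counts and sums include them. Alternatives were other scalings, pseudocounts and filters, a fit of 2 states, array weights, the replicate block and leaving out each library. Deviations of same-numbered libraries correlated at 0.266 (E and M), 0.058 (E and RE) and 0.116 (M and RE), so the numbers were not taken as pairs.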

Additional observations from a re-analysis of the deposited data

How the results depend on the processing

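The rise of Cdh2 and the fall of Epcam in E vs. M kept their direction in every alternative, and Cdh2 kept its call. With library totals in place of TMM, the median of all genes moved by -0.29 in E vs. M and 0.18 in M vs. RE, upward calls made up 30.5% of DEGs rather than 50.2% in the former, 73.8% rather than 62.3% in the latter and 57.1% rather than 65.2% in E vs. RE, and 0 of the 8 genes were DEGs in M vs. RE. Signs then turned for Ctnnb1 (-0.17), Pkp4 (-0.21) and Tcf4 (-0.11) in E vs. M, and for Cdh1 (0.19), Cdh11 (0.19), Ctnna1 (0.06), Pkp4 (0.09), Csnk1a1 (0.19) and Zeb1 (0.09) in M vs. RE. Median-of-ratios factors turned Cdh11 in M vs. RE (0.01). With no filter on low values, 0 of the 8 were DEGs in M vs. RE, and 1 passed an adjusted p of 0.05 there and 3 in E vs. RE. With only 2 states in the fit, E vs. RE had 654 DEGs, 9 of the listed genes and 1 of the 8 past an adjusted p of 0.05. The cause was not tested.

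With 1 library left out at a time, the DEGs in E vs. M were 917 to 3325 of all genes, 19 to 42 of the listed genes and 1 to 2 of the 8 (2 to 5 past an adjusted p of 0.05). In M vs. RE they were 628 to 2308, 12 to 28 and 0 to 1 (0 to 2), and in E vs. RE 9 to 2288, 0 to 24 and 0 to 1 (1 to 6). The low ends came from leaving out the first M library in E vs. M, a first M or RE library in M vs. RE, and the first RE library in E vs. RE, where the lone library is assumed to vary like the other groups. Log2 fold changes that spanned 0 were those of Cdh1 (-0.31 to 0.02), Ctnnb1 (-0.01 to 0.22) and Tcf4 (-0.2 to 0.53) in E vs. M, of Cdh1 (-0.2 to 0.13), Cdh3 (-0.6 to 0.14), Cdh11 (-0.27 to 0.25), Epcam (-0.07 to 0.1) and Csnk1a1 (-0.08 to 0.03) in M vs. RE, and of Cd44 (-0.3 to 0.52), Klf4 (-0.03 to 0.28) and Pvr (-0.8 to 0.14) in E vs. RE.

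The replicate numbers were not taken as pairs. With the replicate block, 2389, 1793 and 1212 genes were DEGs, and 2, 1 and 1 of the 8 genes, as without it. Depth limits Cdh3 and Cdh11, each under 100 reads' worth per library.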
